A study of Mus musculus with 3 samples.

Results

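Cd28, Ctla4 and Icos are neighbouring genes on mouse chromosome 1 that encode related receptors of T cells. They were examined through all sequenced reads between positions 60780000 and 61075000 (mm9), a stretch of 295 kb whose borders were set by gene position. The cluster was proposed with results of these data known. On the GRCm38.p6 gene table the order is Cd28 (gene 12487), Ctla4 (12477) and Icos (54167). Only long non-coding RNA genes and pseudogenes lie between them there, among them 2310016D23Rik, Gm38137 and Gm34649. The starts used on mm9 were near 60803200 for Cd28, near 60966000 for Ctla4 and near 61034700 for Icos. The stretch held 2679 of 12075963 reads of the STAT3-deficient H3K4me3 library, 2304 of 12281399 reads of the wild-type H3K4me3 library and 4545 of 10127075 reads of the wild-type phospho-STAT3 library.

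The STAT3-deficient cells were labelled Stat3fl/fl FoxP3-GFP, CD4-Cre, in which Cre expressed under Cd4 control deletes the conditional Stat3 allele in T cells. The wild-type cells were labelled Stat3fl/fl FoxP3-GFP and carried the same allele and reporter without Cre. Naive CD4 T cells of both kinds were cultured for 72 h on plate-bound antibodies to CD3 and to CD28, the product of the first gene of the cluster, with IL-6 at 10 ng/ml, TGF-b at 2.5 ng/ml and antibodies that block IL-2, IL-4 and IFN-g. These conditions favour Th17 cells, which make IL-17, and all cells received IL-6 for another 1 h before chromatin immunoprecipitation and sequencing. The phospho-STAT3 antibody was raised against the serine-phosphorylated protein. Each group was 1 library, the labels do not say from how many mice, and no test between genotypes was possible. Expression was not measured, so the cell type was not checked against marker RNAs.

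A T cell needs costimulation besides its antigen receptor signal. CD28 is present on naive T cells, binds CD80 and CD86 on antigen-presenting cells and supports growth and IL-2 production. CTLA-4 binds the same ligands with higher affinity and restrains the response, and is also prominent on regulatory T cells. ICOS appears after activation, binds ICOS ligand, and is known for its part in T follicular helper and Th17 cells. STAT3 is the transcription factor that IL-6 activates. H3K4me3 is a histone mark of active promoters, usually found just downstream of the start of a transcribed gene.

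All 3 starts carried H3K4me3 in both genotypes, and all 3 carried a phospho-STAT3 site in wild-type cells. Phospho-STAT3 was spread over 23 sites, 16 of them between the starts of Cd28 and Ctla4. H3K4me3 at the starts of Cd28 and Ctla4 did not differ between genotypes beyond counting error when scaled on marked regions, though by library totals both intervals lay above no change. At Icos it was 1.50-fold higher in the STAT3-deficient library (95% interval 1.15 to 1.97), below the 2-fold size set for a difference. An interval above no change was also found in 6.13% of 4 kb windows around the genome's marked regions. A difference of Icos from Cd28 or Ctla4 was not detectable within 2 kb of the starts, and was not computed over called regions.

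**Figure D1:**
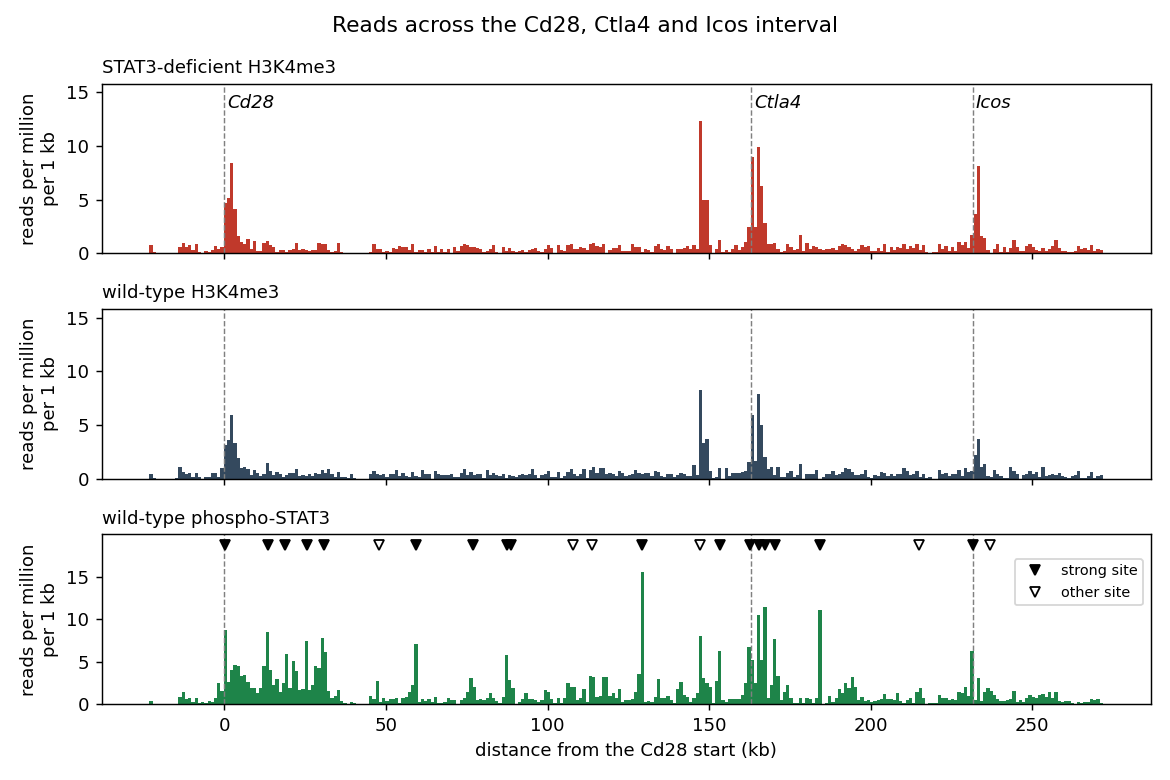
Library-scaled reads (RPM) per 1 kb (vertical axes) across the stretch, by distance in kb from the Cd28 start (horizontal axis), in the STAT3-deficient H3K4me3, wild-type H3K4me3 and wild-type phospho-STAT3 libraries, 1 library each. Dashed lines mark the 3 starts and triangles the 23 phospho-STAT3 sites. H3K4me3 stands at the same places in both genotypes, while phospho-STAT3 also stands at places without H3K4me3.

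At each of the 3 starts a phospho-STAT3 site and the edge of an H3K4me3 region fall together, and the promoter of Ctla4 is shown as the one held in the sequence table used here. It is from RefSeq (GRCm38.p6, plus strand, chr1:60908775-60909074), runs from 250 bases before the start to 50 bases after it, and has each CpG in capitals.
Ctla4: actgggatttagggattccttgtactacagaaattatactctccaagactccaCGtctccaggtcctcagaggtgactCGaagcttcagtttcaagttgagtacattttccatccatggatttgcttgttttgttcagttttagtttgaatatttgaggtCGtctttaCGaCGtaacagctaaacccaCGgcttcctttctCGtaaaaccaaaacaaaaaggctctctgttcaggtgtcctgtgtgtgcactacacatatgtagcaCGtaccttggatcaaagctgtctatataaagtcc
It holds 8 CpGs, against a median of 7 over 32851 promoters of the same length. The CpG count was 0.609 of that expected from its C and G content, above 64.8% of those promoters. The STAT motif TTCNNNGAA, its form with 1 more base in the spacer and the AP-1 motif TGANTCA were searched on both strands, and 0 matches were found for each. Of all promoters, 8.30% held the first, 6.95% the next and 7.81% the AP-1 motif. These letters are absent from this window only, which says nothing of the bases outside it. Promoters of Cd28 and Icos are named only.

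At Cd28, the H3K4me3 reads within 2 kb of the start numbered 163 in the STAT3-deficient library and 117 in the wild-type library. Both libraries had few reads before the start, 13 and 14 in the upstream 2 kb for STAT3-deficient and wild-type cells, against 150 and 103 in the downstream 2 kb. Ratios between genotypes are given as log2 of STAT3-deficient over wild-type, with the median ratio of all 10971 marked H3K4me3 regions of the genome (those whose summed reads reach 50) set to 0. This takes out the difference in library efficiency, and with it any change common to all regions. On this scale the Cd28 ratio was 0.18 (exact Clopper-Pearson 95% interval -0.17 to 0.54). The intervals cover counting error only, and the reads carry no molecular identifiers.

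At Ctla4, the inhibitory receptor, the counts within 2 kb were 181 STAT3-deficient and 121 wild-type H3K4me3 reads. The ratio was 0.28 (-0.06 to 0.63), with an interval that includes 0 as at Cd28. The upstream 2 kb held 43 STAT3-deficient and 28 wild-type reads, but the position of this start is known only to about 1 kb, so the sides are not compared with those at Cd28. With the scaling set on regions of the wild-type library alone, chosen after the data were seen, the Ctla4 interval lay just above 0 (0.35, 0.01 to 0.69).

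At Icos, the receptor induced by activation, the counts within 2 kb were 162 STAT3-deficient and 88 wild-type H3K4me3 reads. The ratio was 0.58 (0.20 to 0.98). Its interval lies above 0, as it does for 6.13% of the 4 kb windows around the 10971 marked regions, and 2.63% of those windows had a ratio at least as high. Of the 3 genes, 0 passed the size rule of at least 2-fold with an interval excluding no change, and 1.49% of the 4 kb windows passed it.

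The peak of the mark at Icos lay in both libraries between 1.25 and 1.75 kb downstream of the start, a stretch picked after the profile was seen. There H3K4me3 was 80 reads in the STAT3-deficient and 36 in the wild-type library. The ratio there was 0.86 (0.27 to 1.47), and the phospho-STAT3 library had 27 reads. The rest of the 4 kb window held 82 and 52 H3K4me3 reads in STAT3-deficient and wild-type cells, a ratio of 0.36 (-0.16 to 0.89). These intervals overlap, so a difference between the parts of the window is not read from them. With 1 kb on each side of the start, which leaves that stretch out, the Icos ratio was 0.38 (-0.31 to 1.09).

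**Figure D2:**
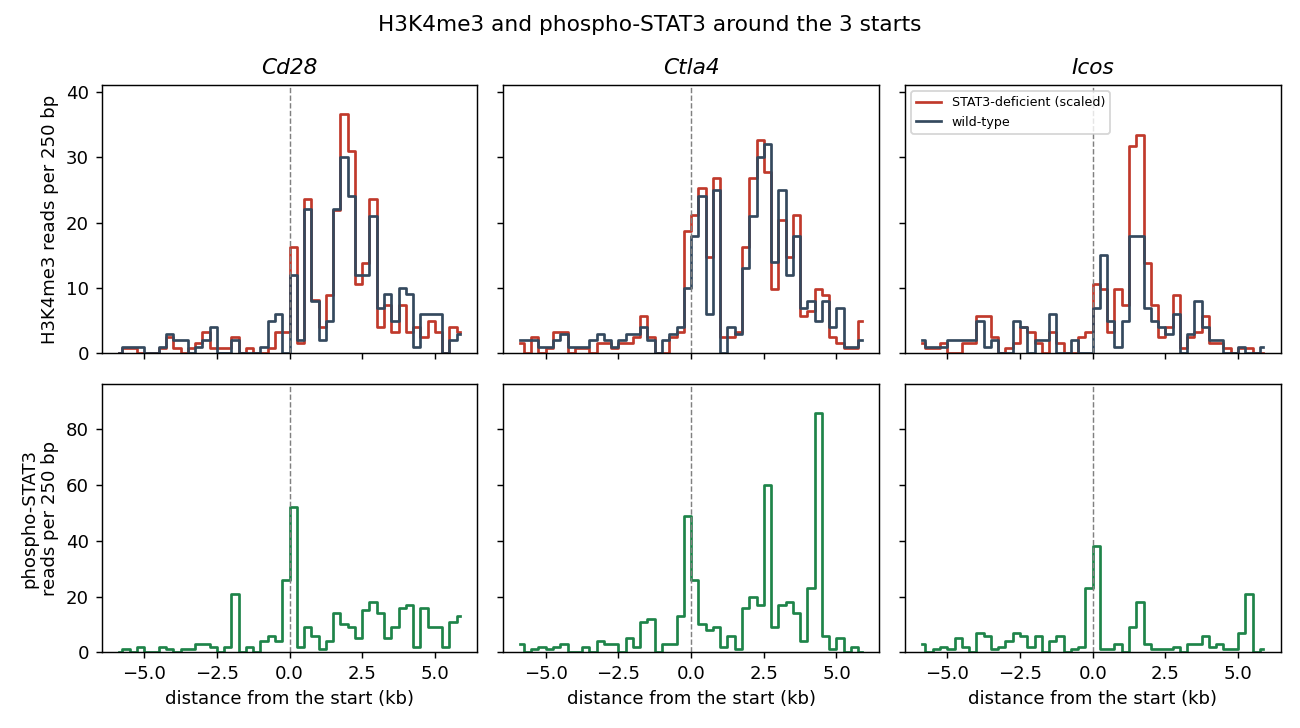
Reads per 250 bp within 6 kb of the starts of Cd28, Ctla4 and Icos, with H3K4me3 above (STAT3-deficient reads divided by the scaling factor, and wild-type reads) and wild-type phospho-STAT3 below; the dashed line is the start. H3K4me3 lies mainly downstream of each start as used here, and phospho-STAT3 has a peak close to it. The Ctla4 start is known only to about 1 kb. Higher peaks stand downstream of Ctla4, the highest bin with 86 reads, and a lower one 5.35 kb downstream of Icos.

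Over 2 kb on each side of the starts, the order of the H3K4me3 levels was Ctla4, Cd28 and Icos in both libraries. Cd28 and Icos were nearly level in the STAT3-deficient library, with 163 and 162 reads. In the STAT3-deficient library exact Poisson intervals were 156 to 209 reads at Ctla4, 139 to 190 at Cd28 and 138 to 189 at Icos. In the wild-type library they were 100.4 to 145 at Ctla4, 96.8 to 140.2 at Cd28 and 70.6 to 108 at Icos. These intervals overlap within each library, but overlap alone does not show that levels are equal. Other windows read otherwise. Over the downstream 2 kb, Cd28 was highest, with 150 STAT3-deficient and 103 wild-type reads, against 138 and 93 at Ctla4. Over the downstream 5 kb the STAT3-deficient intervals were 330 to 407 at Ctla4, 259 to 326 at Cd28 and 169 to 224 at Icos. The wild-type ones were 245 to 312, 197 to 256 and 93.1 to 136. The Ctla4 start is known only to about 1 kb, so downstream windows are approximate there. The order was not tested and is a description. Within 2 kb of the starts the marks were above the middle of the genome's marked windows, whose median was 100 STAT3-deficient and 83 wild-type reads. In the wild-type library, 79.9% of marked windows had fewer reads than Cd28, 82.0% fewer than Ctla4 and 54.9% fewer than Icos. In the STAT3-deficient library these shares were 86.3%, 90.7% and 86.0%. The marked windows were centred on their regions and the gene windows on the starts, so these ranks are not like for like.

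Whether Icos differed from its neighbours was examined with the difference of their ratios, in which the scaling cancels. Icos minus Cd28 was 0.40 log2 units (-0.13 to 0.93), Icos minus Ctla4 was 0.30 (-0.22 to 0.82) and Ctla4 minus Cd28 was 0.10 (-0.39 to 0.60). All 3 intervals include 0, so a difference of Icos from its neighbours was not detectable within 2 kb of the starts. With called regions in place of windows the ratios were 0.59 (0.21 to 0.97) at Icos, 0.06 (-0.21 to 0.34) at Cd28 and 0.13 (-0.10 to 0.36) at Ctla4. These lie farther apart than in the windows. Their differences were not computed, so the result holds for the windows only.

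By library totals all values move up by 0.32, the median shift of the marked regions. The ratios then were 0.50 (0.15 to 0.86) at Cd28, 0.61 (0.27 to 0.95) at Ctla4 and 0.90 (0.52 to 1.30) at Icos. On that scale 32.3% of the marked windows had an interval above 0 and 2.12% passed the size rule, as 0 of the 3 genes did.

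H3K4me3 was called in 6 regions of the stretch, and 5 of them began within 2 kb of a gene start. Cd28 had a region from 60803200 to 60803999 with 55 STAT3-deficient and 39 wild-type reads, and another 1.6 to 4.2 kb downstream, from 60804800 to 60807399, with 199 and 159 reads in the same order of genotypes. Ctla4 likewise had a region at its start, from 60965800 to 60966999, with 129 STAT3-deficient and 83 wild-type reads. Its other region, from 60967800 to 60970599, held 236 STAT3-deficient and 189 wild-type reads and ended 4.6 kb downstream of the start. At both genes the mark was thus called as a pair of regions with a short low stretch between them. Icos had a single called region, from 61034800 to 61037599, with 166 STAT3-deficient and 90 wild-type reads. Reads dipped there too between the start and the peak, to 4 STAT3-deficient and 5 wild-type reads in the 250 bp bin centred 0.625 kb downstream. A single called region at Icos is therefore not read as a different shape.

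The sixth region lay upstream of Ctla4, away from all 3 starts, and held the most H3K4me3 reads of the 6 in the STAT3-deficient library. It ran from 60950200 to 60952999, 15.8 to 13.0 kb before the Ctla4 start, with 266 STAT3-deficient and 187 wild-type reads. In both libraries the downstream region of Ctla4 had as many within counting error, with 236 and 189 reads. Of all marked regions, 97.8% had fewer reads in both libraries summed. No gene was assigned to it, because the annotation used here is of another build.

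The ratios of the 6 regions were between 0.02 and 0.59, and the Icos region was the only one of them with an interval above 0 (0.59, 0.21 to 0.97), as were 5.83% of marked regions. By library totals the interval lay above 0 in 5 of the 6, all but the short region at the Cd28 start, and in 29.3% of marked regions. The regions farther from the start gave the values nearest 0, 0.03 (-0.28 to 0.34) downstream of Cd28 and 0.02 (-0.26 to 0.31) downstream of Ctla4. The region upstream of Ctla4 had a ratio of 0.21 (-0.06 to 0.49). None of the 6 passed the size rule under either scaling, and 2.17% of marked regions did on the scale of marked regions. Their share by library totals was not computed. Pooled over the 6 regions, the counts were 1051 STAT3-deficient and 747 wild-type reads, a ratio of 0.20 (0.06 to 0.33). This pool includes the Icos region and was not taken without it, so a rise common to the 6 is not read from it. Outside these regions the stretch held 1628 STAT3-deficient and 1557 wild-type reads, a ratio of -0.23 (-0.33 to -0.13), which turned to 0.09 (-0.01 to 0.19) by library totals. The genome outside called regions had a ratio of -0.35 on the same scale, which is set on regions and not on background.

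**Figure D3:**
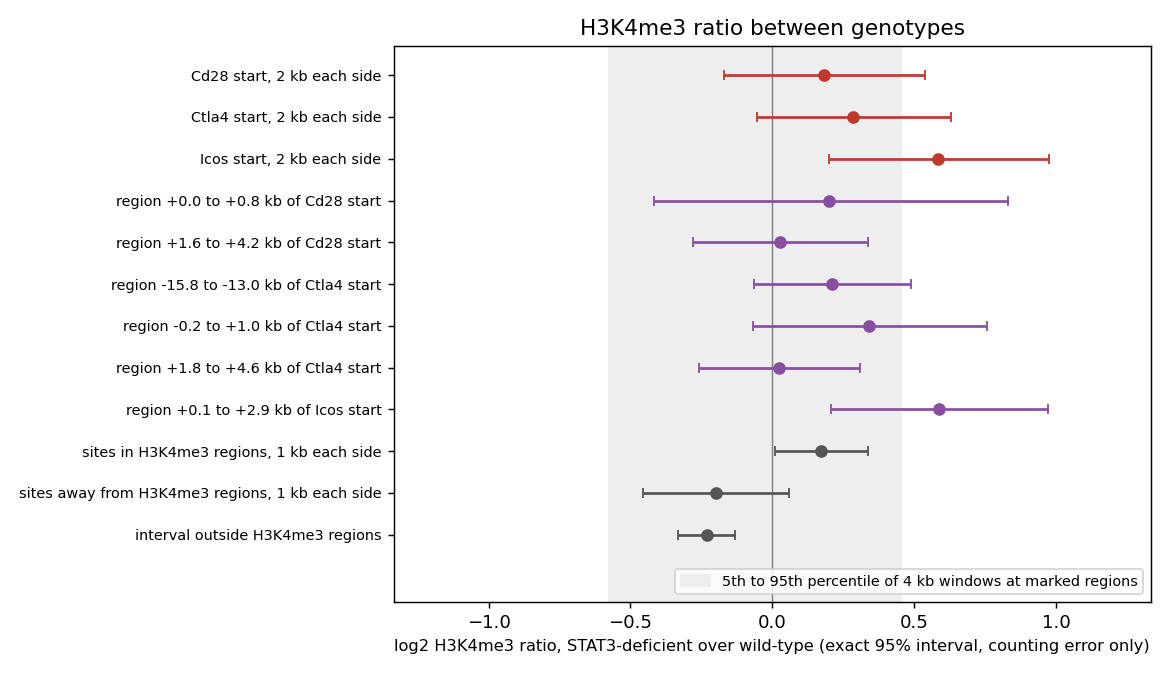
Log2 H3K4me3 ratio, STAT3-deficient over wild-type (horizontal axis), at the 3 starts, in the 6 called regions and around phospho-STAT3 sites; points are ratios and bars exact 95% intervals for counting error in 1 library per genotype. The grey band spans the 5th to the 95th percentile of marked 4 kb windows, -0.58 to 0.45, and the Icos values lie above it.

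Phospho-STAT3 was dense in parts of the cluster, with 18.2 reads per kb between the starts of Cd28 and Ctla4, 16.2 between those of Ctla4 and Icos, 8.41 downstream of the Icos start and 5.91 upstream of the Cd28 start. Over the stretch as a whole, the wild-type phospho-STAT3 library had 15.4 reads per kb, 3.22-fold its density over the mappable genome. The STAT3-deficient and wild-type H3K4me3 libraries were 1.59-fold and 1.34-fold over theirs. In these folds the stretch was counted at its full length, without a mappable share, so the densities are not strictly alike. The reads formed 23 sites (windows of 200 bp with a Poisson p under 1e-08 against their surroundings), and 17 of these were strong, that is in the top 25% of the genome's 26908 sites by reads in excess of the local expectation. The number of strong sites fell to 11 with a site threshold of 1e-12, and was 13 or 14 with 15 reads required, a 5 kb local density or no read shift. The median site had 36 reads, against 21 over all sites, but its fold over the surroundings was 9.21 against 10.0 over all sites. The higher counts therefore came with a higher local density.

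In 8490 other stretches of the same length, taken end to end along the genome, the median was 1 site, and 0.153% had at least 23. Among the 1555 of them with 3 to 9 marked H3K4me3 regions, a number close to the 6 of the cluster, the median was 8 sites and 2 strong sites, and 0.514% had at least 23 sites. The rank of the cluster is a description.

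A strong site sat on each start, also under those 4 alternatives. The site at Cd28, from 60803050 to 60803449, had its centre 50 bp downstream of the start and 62 reads, 9.87-fold over the local expectation of 6.28. That at Ctla4, from 60965700 to 60966099, was centred 150 bp upstream with 43 reads, 4.56-fold, and the same place was called as a site in the STAT3-deficient H3K4me3 library too. That at Icos, from 61034500 to 61034949, was centred 50 bp downstream with 45 reads, 12.4-fold. For comparison, 16.3% of marked H3K4me3 regions had a strong site within 2 kb. Starts are known here only to about 100 bp (Cd28 and Icos) or 1 kb (Ctla4), so these distances are approximate.

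The site with the most reads lay between the genes. It was 33.65 kb upstream of the Ctla4 start, from 60932050 to 60932599, and held 118 reads at 22.5-fold enrichment. Of all sites of the genome, 0.394% had an excess at least as large. H3K4me3 within 1 kb of it was 10 STAT3-deficient and 18 wild-type reads, a ratio of -1.14 (-2.42 to 0.05), too few to tell from no difference.

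Of the 3 starts, Ctla4 had the most sites within 10 kb. Beyond the site at its start, sites lay 2.65, 4.35 and 7.50 kb downstream, with 58, 81 and 36 reads, and the first pair fell in the downstream H3K4me3 region. The one at 2.65 kb was also called in the wild-type H3K4me3 library. A further site 21.45 kb downstream, from 60987200 to 60987699, held 79 reads at 25.6-fold, the highest fold of the 23. Upstream, a site 9.60 kb before the start held 31 reads, and the H3K4me3 region upstream of Ctla4 held a site of 26 reads, which was not strong.

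Downstream of Cd28, 4 strong sites lay 13.45, 18.90, 25.60 and 30.75 kb from the start, with 50, 35, 52 and 66 reads. Phospho-STAT3 was raised between them as well. From 5 to 35 kb downstream, with the sites and 500 bp on each side left out, there were 25.5 phospho-STAT3 reads per kb, against 7.85 in the rest of the stretch outside sites and H3K4me3 regions and 4.79 over the mappable genome. The H3K4me3 libraries were not raised to that extent, with 6.57 reads per kb in the STAT3-deficient and 6.53 in the wild-type library, against 5.46 and 5.37 in the rest of the stretch. This interval was picked after the profile was seen, and no input library was analysed here.

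By segment, there were 0 sites in the 23.2 kb upstream of the Cd28 start, 16 between the starts of Cd28 and Ctla4 (9.83 per 100 kb), 5 between those of Ctla4 and Icos (7.28 per 100 kb), and 2 downstream of the Icos start (4.96 per 100 kb). Between 47.70 and 113.70 kb downstream of Cd28 lay 7 sites of 18 to 48 reads. Icos had, besides the site at its start, a site of 12 reads 16.60 kb upstream and one of 21 reads 5.35 kb downstream, both not strong. The widest gap between neighbouring sites, 30.65 kb, was upstream of Icos. In 10 of 295 bins of 1 kb, all 3 libraries had 0 reads, so no site could be seen there, and 6 of these bins lay upstream of the Cd28 start.

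**Figure D4:**
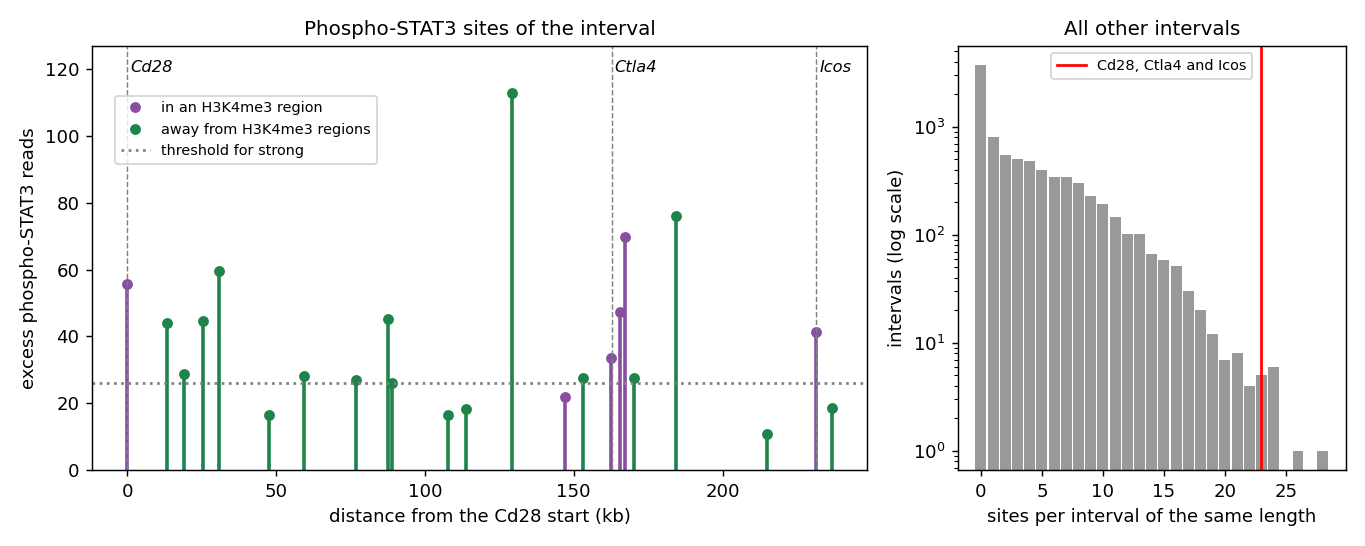
Left, excess phospho-STAT3 reads over the local expectation (vertical axis) of the 23 sites by distance in kb from the Cd28 start, coloured by whether the site overlaps an H3K4me3 region; the dotted line is the threshold for strong sites. Right, number of other genomic stretches of the same length (log axis) by their number of sites, with the cluster's 23 as a red line; most stretches had under 10.

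The share of sites in H3K4me3 regions was near that over the genome. Of the 23 sites, 6 overlapped an H3K4me3 region, as did 26.7% of all sites. Of the 17 strong sites, 12 lay away from one, as did 74.2% of all strong sites. With a site threshold of 1e-12 it was 6 of 11, and the share over the genome at that threshold was not computed. Seen from the mark, 5 of the 6 regions held a site, as did 52.5% of all marked regions.

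H3K4me3 around single sites was not distinguishable between genotypes on the scale set by marked regions. Within 1 kb of each site it was between 7 and 212 STAT3-deficient and between 7 and 169 wild-type reads. The interval included 0 at 23 of 23 sites, while it excluded 0 at 9.42% of all sites of the genome. By library totals the interval lay above 0 at 4 of the 23, all in H3K4me3 regions, and excluded 0 at 12.7% of all sites. The size rule was passed at 0 of the 23 under both scalings, and at 5.31% of all sites on the scale of marked regions. Its share of all sites by library totals was not computed. The ratio was above 0 at 11 sites and below 0 at 12. Pooled over the 6 sites in H3K4me3 regions, the counts were 738 STAT3-deficient and 533 wild-type reads, a ratio of 0.17 (0.01 to 0.34). This pool includes the site at the Icos start, with 58 and 35 reads, and was not taken without it. Pooled over the 17 other sites the counts were 262 and 245 reads in the same order, a ratio of -0.20 (-0.46 to 0.06). On this scale the genome outside called regions had -0.35. By library totals these ratios were 0.49 (0.33 to 0.66) and 0.12 (-0.14 to 0.38), so the sign at sites away from the mark turned with the scaling.

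Regions elsewhere with the most similar reads in the 3 libraries were found by Euclidean distance of log2 RPM over 4 kb. For Cd28 they were on chromosome 7 from 24866600 to 24868199 (distance 0.04) and on chromosome 5 from 123465600 to 123467599 (0.12). For Ctla4 they were the same region of chromosome 5 (0.07) and one on chromosome 11 from 120210200 to 120211399 (0.10). For Icos they were on chromosome 11 from 60021800 to 60024599 (0.01), where H3K4me3 was 162 STAT3-deficient and 88 wild-type reads and phospho-STAT3 was 114 reads, and on chromosome 16 from 46119000 to 46120599 (0.13). With 10971 regions and 3 libraries, near neighbours of this kind are easily found.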

How the data were processed

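The deposited files list aligned reads, 1 per line, with start, end, strand and a code of matching bases; the score column, as deposited, is 0 in every line and was not used. Per the submitters' processing notes the build was mm9 and SICER was used; an aligner was not given in the sources used here. Reads span 25 bp, and each position and strand was listed at most 1 time, so repeated reads were already gone. Libraries had been amplified for 18 PCR cycles, per the labels' protocols.

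Reads were moved 75 bp towards the fragment centre. The H3K4me3 libraries were pooled to call regions: a window of 200 bp counted when it held 12 or more reads (Poisson p of 1e-05, taking 0.8 of the genome as mappable), windows no more than 600 bp apart were joined, and 2 were required. For phospho-STAT3 sites, windows of the same width moved by 50 bp needed 10 reads, both strands and a Poisson p below 1e-08, the expectation being the higher of the whole-genome density and the density in the surrounding 10 kb. Overlapping or adjoining windows were merged, and the reads of a site are those of its top window. Other stretches of the same length needed at least 500 H3K4me3 reads. A pseudocount of 1 read was used for distances only. Every region called in the stretch was to be named, with up to 12 sites by excess; the remaining sites are given by position or range. No genome of the files' build was used, so other genes of the costimulation pathway were not placed, and site sequences are not given. The members and lists were chosen with earlier results of these data known. Callers and ratios were tested on simulated data. Tools were Python 3.11.15, numpy 2.4.6, scipy 1.17.1, pandas 2.3.3 and matplotlib 3.10.9.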

Additional observations from a re-analysis of the deposited data

How the results depend on the processing

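The ratios at Cd28, Ctla4 and Icos moved by less than their counting intervals under all 10 alternatives each (library totals, no read shift, a stricter region minimum, other windows, called regions, subtracted background, and other regions for the scaling), and 0 of them passed the size rule under any. By library totals the intervals at Cd28 (0.15 to 0.86) and Ctla4 (0.27 to 0.95) came to lie above 0. With the scaling on wild-type regions alone the Ctla4 interval did so too (0.35, 0.01 to 0.69). At 1 kb on each side the Icos interval came to include 0. Their ranges were 0.03 to 0.50 at Cd28, 0.13 to 0.61 at Ctla4 and 0.38 to 0.90 at Icos. The window reaching 5 kb downstream and the scaling on regions of 1 library alone were chosen after the data were seen. By library totals the ratio of the stretch outside the 3 promoters turned from -0.16 to 0.16, and that within 1 kb of all 23 sites moved from 0.07 (-0.07 to 0.20) to 0.39 (0.25 to 0.52), both by the shift of the scaling. The number of sites stayed between 20 and 24. Strong sites numbered 17 as reported, 11 with a site threshold of 1e-12, where the top 25% is taken from fewer sites, and 13 to 17 under the other alternatives; 1 of the 17 lies on the threshold of 26.12 excess reads. No paired analysis was possible because each group had 1 library. No replicate could be left out. Depth limits the ratios at single starts: as reported, the upper bounds of the fold were 1.45 at Cd28, 1.55 at Ctla4 and 1.97 at Icos, and the Icos bound was between 1.81 and 2.46 under the alternatives, above 2 by library totals (2.46), with 1 kb on each side (2.13) and with the scaling on wild-type regions alone (2.06).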

Other observations

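Reads with at least 1 mismatch to the reference made up 3.51% of the STAT3-deficient H3K4me3 reads, 3.34% of the wild-type H3K4me3 reads and 3.63% of the wild-type phospho-STAT3 reads of the stretch. Over the whole libraries the values were 3.97%, 3.90% and 4.58% for these libraries, so the cluster was not rich in mismatched reads in any of the 3 libraries. Of the 23 phospho-STAT3 sites, 3 were also called as sites in an H3K4me3 library: that in the H3K4me3 region upstream of Ctla4 in both, that at the Ctla4 start in the STAT3-deficient one and that 2.65 kb downstream of it in the wild-type one. The share over all sites of the genome was not computed, so this count is not read as high or low.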
